A study of Homo sapiens with 2 samples.

Results

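The heat shock chaperones are a family of 10 genes, HSPA1A, HSPA1B, HSPA8, HSPH1, HSP90AA1, HSP90AB1, DNAJB1, HSPD1, HSPE1 and HSPB1. They were chosen by name from the 50868 gene rows of the table, and all 10 were found and had at least 10 reads over both libraries. The study asked which adhesion and proliferation genes change when UNC5B, a netrin receptor, is overexpressed in AML cells. RNA of Molm13, a human AML cell line with the KMT2A::MLLT3 fusion, was sequenced from 1 library of cells carrying the vector control (Vector) and 1 library of cells given the UNC5B lentivirus (OE-UNC5B). The construct expresses UNC5B from a CMV promoter together with mCherry and a puromycin resistance gene, and infected cells were selected with puromycin. Both libraries came from the same line, grown in RPMI medium with fetal bovine serum, and the labels give no further treatment for either. Each group is 1 library, so nothing here has a replicate check and the values compare libraries rather than conditions.

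Heat shock proteins and their partners bind unfolded or partly folded proteins to refold them, many of them with ATP, to hold them for degradation or to finish the folding of kinases and transcription factors. In the cytosol, J-domain proteins such as DNAJB1 hand clients to HSP70, HSPH1 resets HSP70 by exchanging its nucleotide, and HSP90 receives clients from HSP70. In mitochondria, HSPD1 and HSPE1 form the chaperonin barrel and its lid. Many of these genes are driven by HSF1, which binds heat shock elements, arrays of inverted GAA units, and HSP90 and HSP70 are known to hold HSF1 inactive in unstressed cells. Mutant FLT3, a kinase common in AML, is a known HSP90 client.

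The libraries held 13715566 reads (Vector) and 15637137 reads (labelled OE-UNC5B) on genes. UNC5B had 0 reads in both, which allows a level of up to 0.219 CPM for Vector and 0.192 CPM for the other library (CPM is the read count after division by library size), so the overexpression is not visible here. The second library is therefore called the library labelled OE-UNC5B, and every direction rests on the labels. All 10 myeloid leukaemia markers examined, CD33, SPI1 and FLT3 among them, had at least 10 reads over both libraries. Of the defining markers of other cell types, KDR, CDH5, DCN, EPCAM and KRT8 were at 0 reads in both, and the fibroblast collagens COL3A1 (108 and 6 reads) and COL1A1 (21 and 9) were not. The 6 fibroblast markers together held 139 reads in Vector against 17 in the library labelled OE-UNC5B, the 6 endothelial markers 5 and 5, the 6 epithelial markers 5 and 2, and the 6 lymphocyte markers 412 and 429. By at least 1.5-fold, LYZ (51742 and 23700 reads) and MPO (3363 and 1553), products of maturing myeloid cells, were lower, and PTPRC (1592 and 3102) was higher. Of all genes with at least 10 reads, 12.5% were lower and 12.9% higher. The 10 myeloid markers had a median log2 fold change of -0.02, with 5 below 0 and 5 above. SPI1 was at -0.23, CEBPA at -0.16, CSF3R at -0.04, FCGR1A at 0.01, CD33 at 0.14, CD4 at 0.31 and FLT3 at 0.42. The part of these markers in the chaperone values was not tested. The share of mitochondrially encoded reads was 6.78% and 5.66%.

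In RefSeq windows, 8 of the 10 members hold at least a 2-unit match to the element that HSF1 binds, against 14.0% of all genes. A few upstream sequences are printed here. They show the 3-unit element of HSPA8, HSPH1 and HSP90AA1 beside the 2-unit element that the near-identical HSPA1A and HSPA1B share. Each is the 250 bases before the transcription start on GRCh38, written 5′ to 3′ on the gene's own strand, with matches to a heat shock element of at least 2 units in capitals. The sequences of HSPA8, HSP90AA1, HSPA1A and HSPA1B are from RefSeq (GRCh38.p14). That of HSPH1 was read from the GRCh38 genome at its canonical GENCODE start, because the RefSeq start lies 484 bases away from it.
HSPA8, minus strand, chr11:123062137-123062386: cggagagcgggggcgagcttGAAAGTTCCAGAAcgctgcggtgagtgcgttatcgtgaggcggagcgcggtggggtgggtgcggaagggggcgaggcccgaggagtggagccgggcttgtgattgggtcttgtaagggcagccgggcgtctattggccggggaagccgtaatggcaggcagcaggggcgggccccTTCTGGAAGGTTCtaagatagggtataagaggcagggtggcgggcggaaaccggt
HSPH1, minus strand, chr13:31161905-31162154: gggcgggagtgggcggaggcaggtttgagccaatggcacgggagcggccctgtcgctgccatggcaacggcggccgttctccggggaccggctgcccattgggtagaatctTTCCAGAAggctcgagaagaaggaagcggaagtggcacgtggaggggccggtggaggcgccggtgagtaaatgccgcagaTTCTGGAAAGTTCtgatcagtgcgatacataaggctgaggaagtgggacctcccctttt
HSP90AA1, minus strand, chr14:102087045-102087294: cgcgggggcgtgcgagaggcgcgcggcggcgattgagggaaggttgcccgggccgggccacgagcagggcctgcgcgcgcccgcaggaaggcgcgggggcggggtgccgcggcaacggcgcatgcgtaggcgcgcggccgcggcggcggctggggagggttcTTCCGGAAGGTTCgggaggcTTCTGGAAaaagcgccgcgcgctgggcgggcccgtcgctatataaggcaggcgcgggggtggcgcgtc
HSPA1A, plus strand, chr6:31815293-31815542: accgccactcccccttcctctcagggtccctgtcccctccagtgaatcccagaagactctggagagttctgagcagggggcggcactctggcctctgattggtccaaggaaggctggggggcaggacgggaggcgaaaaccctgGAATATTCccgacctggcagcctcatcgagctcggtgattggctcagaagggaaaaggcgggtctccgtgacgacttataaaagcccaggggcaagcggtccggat
HSPA1B, plus strand, chr6:31827488-31827737: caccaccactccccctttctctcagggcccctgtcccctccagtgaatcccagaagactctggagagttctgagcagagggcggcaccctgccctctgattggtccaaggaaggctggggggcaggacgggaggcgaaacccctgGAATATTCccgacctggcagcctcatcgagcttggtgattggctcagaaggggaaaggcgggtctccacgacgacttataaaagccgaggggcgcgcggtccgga

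A 2-unit element was searched as GAANNTTC or TTCNNGAA, where N is any base, and a 3-unit element as the same with a further GAA or TTC unit after 2 more free bases, so that the units alternate. Both orders were searched, which covers both strands. Each 3-unit match also holds 2 overlapping 2-unit matches. The 3-unit element stood in 155 of 35116 RefSeq windows of 250 bases (0.441%) and in 4 of the members' 16 windows. By gene, it stood before 152 of 27305 genes (0.557%) and before 4 of the 10 members, HSPA8, HSP90AA1, HSP90AB1 and HSPD1. HSPH1 had none in its RefSeq window and 1 at its canonical start, from -59 to -47. HSPA8 had 2, TTCTGGAAGGTTC from -55 to -43 and GAAAGTTCCAGAA from -230 to -218. HSP90AB1 had 2, TTCTGGAAGATTC and TTCTGGAAGCTTC, in the window before an alternative start that lies 842 bases downstream of its canonical start, and none in the window before the canonical start. HSPD1 had an overlapping pair at the far end of its window, between -245 and -228. The 2-unit element stood in 11.6% of all windows and 8 of the members' 16, or before 14.0% of all genes and 8 of the 10 members. HSPA1A and HSPA1B each held the same one, GAATATTC, from -106 to -99 and from -105 to -98, and DNAJB1 held 2, from -77 to -70 and from -47 to -40. HSPE1 had no match in its window, chr2:197500129-197500378. The HSPD1 window, chr2:197499841-197500090, lies between the starts of these head-to-head genes. The HSPD1 pair therefore also stands upstream of HSPE1, beyond the 250 bases searched. These matches describe letters and say nothing of whether HSF1 was bound.

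**Figure D1:**
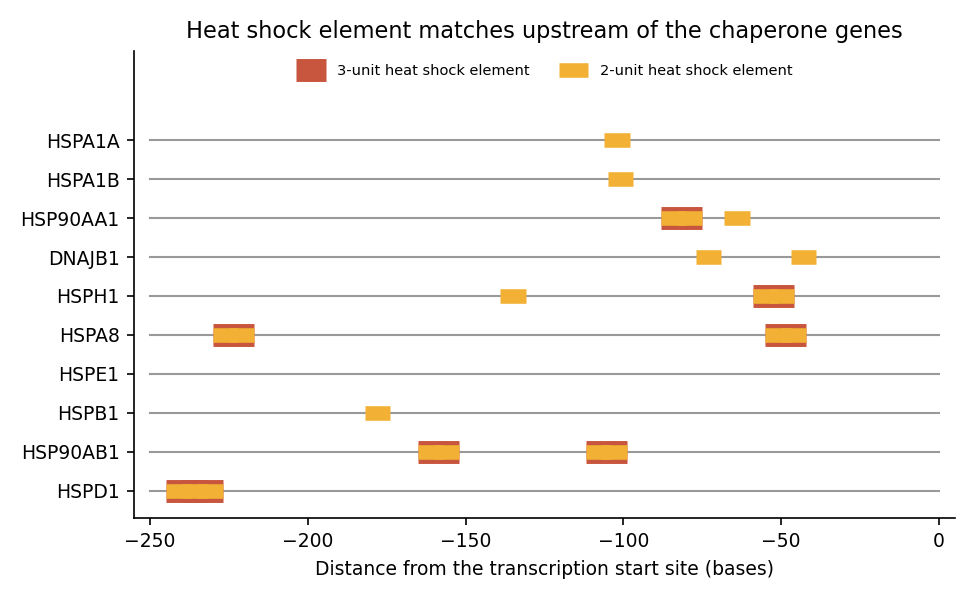
Matches to the 2-unit (yellow) and 3-unit (red) heat shock element in the 250 bases before the transcription start of each chaperone gene, with distance from the start in bases on the x axis. HSP90AB1 is drawn at the start 842 bases downstream of its canonical start and HSPH1 at its canonical GENCODE start. Both are thus drawn where a match stands, since HSP90AB1 has none before its canonical start and HSPH1 none in its RefSeq window. HSPH1 is not among the 8 members counted against all genes. Genes are ordered by log2 fold change with the lowest at the top. HSPE1 has no match within its 250 bases, and the HSPD1 pair lies between the starts of HSPD1 and HSPE1.

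After scaling, the level of all 10 chaperones was lower in OE-UNC5B as labelled, against 50.6% of the 15384 genes with at least 10 reads, 50.7% of those with at least 1000 reads and 63.6% of those with at least 10000 reads. By at least 1.5-fold, 6 of the 10 were lower and 0 were higher, where 12.5% of all genes were lower and 12.9% higher. The median log2 fold change of the family was -0.83, and that of all genes was -0.01. Since 9 of the 10 have at least 1000 reads, the abundant genes are the closer background, and among them 6.57% of 5932 were lower and 7.62% higher by 1.5-fold, against 5 and 0 of these 9 members. Of the 5 members with at least 10000 reads, 3 were lower by 1.5-fold, where 10.1% of 415 genes were. By at least 2-fold, HSPA1A and HSPA1B were lower, against 4.79% of all genes, and 0 members were higher, against 5.15%. The count of 2 was 1 with library totals, with a minimum of 50 reads and with HSPA1A and HSPA1B summed, and 0 with FPKM and 0.1 or 1 added. Intervals here are exact Clopper-Pearson intervals from the reads and cover counting error only, which leaves out the variation between cultures. In RNA from whole cultures, fewer cells expressing a gene and less of its RNA per cell cannot be told apart.

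**Figure D2:**
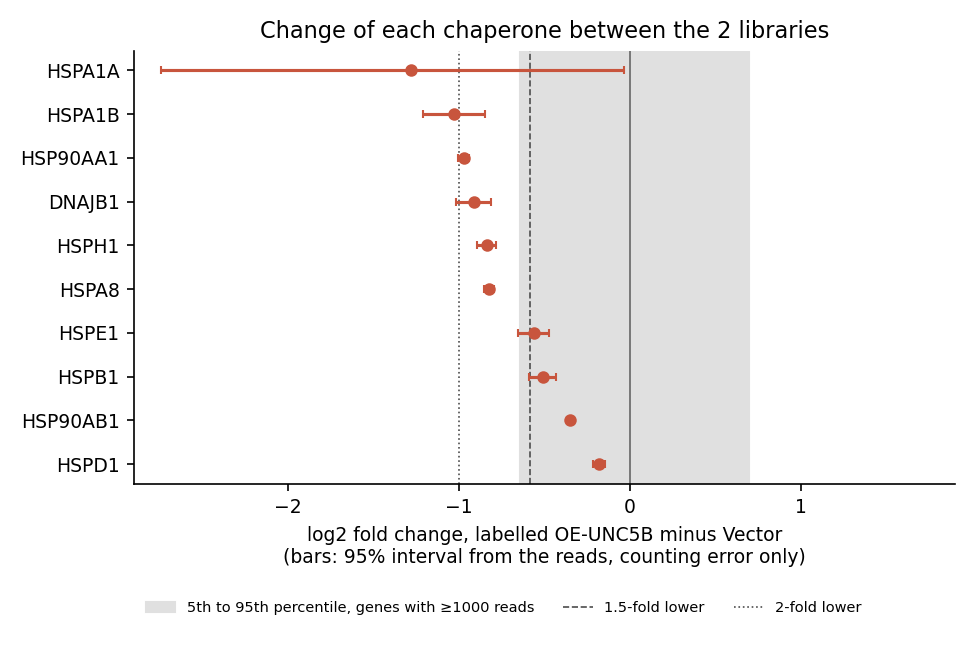
Log2 fold change of each chaperone, library labelled OE-UNC5B minus Vector (1 library each), on the x axis. Bars are 95% intervals from the reads, the grey band is the 5th to 95th percentile of the 5932 genes with at least 1000 reads (-0.64 to 0.69), and all 10 points lie below 0, from -1.28 for HSPA1A to -0.18 for HSPD1.

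HSPA8 encodes the constitutive cytosolic HSP70 that folds new proteins and uncoats clathrin vesicles. It had 24689 reads in Vector against 16411 in the library labelled OE-UNC5B, or 1830 and 1032 TMM-scaled CPM. The level was 1.77-fold lower, with a log2 fold change of -0.83 (95% interval -0.85 to -0.80). HSPA8 spans chr11:123057489-123063230 on the minus strand, with 9 exons in its canonical transcript. Its 10 pseudogene rows with reads held 46 and 44 reads in all, under 1% of its own, and adding them left the log2 fold change at -0.82.

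HSPA1B encodes the stress-inducible cytosolic HSP70, from a gene of 1 exon at chr6:31827735-31830255. It had 696 reads in Vector against 402 in the library labelled OE-UNC5B, 2.04-fold lower with a log2 fold change of -1.03 (interval -1.21 to -0.85). The interval holds the 2-fold mark, so the side of that mark is not settled by counting error alone. HSPA1A, its neighbour at chr6:31815464-31817946, makes almost the same mRNA and had 17 and 8 reads. Its log2 fold change of -1.28 has an interval from -2.74 to -0.03, too wide to place it, and it was at -0.20 with FPKM and 1 added. The canonical transcripts of the pair are 91.9% identical over the alignment, and 73.8% of the 75-base sequences of HSPA1A also occur in HSPA1B. The upstream sequences printed above are 93.6% identical, with the same element. A further GENCODE gene, ENSG00000285565, shares 33.2% of the 75-base sequences of HSPA1A and 34.7% of those of HSPA1B and was not analysed here. No other gene row overlaps the row of HSPA1A or HSPA1B. The split of reads between the pair is therefore uncertain, and their sum removes that split but not what ENSG00000285565 shares. Together they had 713 reads in Vector against 410 in the library labelled OE-UNC5B, a log2 fold change of -1.03 (interval -1.21 to -0.86).

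HSPH1 and DNAJB1, the exchange factor and the J-domain partner of cytosolic HSP70, had ratios close to that of HSPA8. HSPH1 (chr13:31134974-31162388, minus strand, 18 exons) had 6241 reads in Vector against 4112 in the library labelled OE-UNC5B, 1.79-fold lower with a log2 fold change of -0.84 (interval -0.90 to -0.78). DNAJB1 (chr19:14514770-14529770, minus strand, 3 exons) had 2049 and 1282 reads, 1.88-fold lower with a log2 fold change of -0.91 (interval -1.01 to -0.81). Within a library the ratio of 2 genes does not depend on the scaling. HSPH1 had 0.253 reads per read of HSPA8 in Vector and 0.251 in the other library, a log2 difference of -0.01 (exact conditional interval -0.08 to 0.05). DNAJB1 had 0.0830 and 0.0781 reads per read of HSPA8, a log2 difference of -0.09 (interval -0.19 to 0.02). Both intervals hold 0, so neither differed from HSPA8 in its change beyond counting error. None of the 75-base sequences of HSPH1 or DNAJB1 occur in transcripts of another gene. The row of DNAJB1 overlaps TECR on the opposite strand, with 2310 and 1915 reads, and the use of strand in counting is not given in the sources used here.

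The 2 cytosolic HSP90 genes differed from each other. HSP90AA1 encodes the inducible alpha form and had 22239 reads in Vector against 13346 in the library labelled OE-UNC5B, 1.96-fold lower (interval 1.92 to 2.01) with a log2 fold change of -0.97. HSP90AB1 encodes the constitutive beta form, the most abundant member, and had 49693 and 45889 reads, 1.28-fold lower with a log2 fold change of -0.35 (interval -0.37 to -0.33). Alpha made up 30.9% of the HSP90 reads in Vector against 22.5% in the library labelled OE-UNC5B. The ratio of alpha to beta was 0.448 and 0.291, a log2 difference of -0.62 (interval -0.66 to -0.59) that is free of the scaling. HSP90AA1 spans chr14:102080738-102139699 on the minus strand and HSP90AB1 chr6:44246166-44253888 on the plus strand. The 4 pseudogene rows of HSP90AA1 held 410 and 350 reads in all and the 5 of HSP90AB1 held 99 and 92, and the log2 fold changes with them added were -0.96 and -0.35.

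The 2 mitochondrial chaperonin genes differed from each other. HSPD1, the barrel subunit, was the only member with more reads in the library labelled OE-UNC5B, 13964 against 13425 in Vector, in a library that is 1.14 times larger. After scaling it was 1.13-fold lower, a log2 fold change of -0.18 (interval -0.21 to -0.15), the smallest difference in the family. HSPE1, the lid subunit, had 2170 and 1729 reads, 1.48-fold lower with a log2 fold change of -0.56 (interval -0.66 to -0.47), just short of 1.5-fold. Reads of HSPE1 per read of HSPD1 were 0.162 and 0.124, a log2 difference of -0.38 (interval -0.48 to -0.29). The genes lie head to head on chromosome 2, HSPD1 at 197486581-197516737 on the minus strand and HSPE1 at 197499994-197503457 on the plus strand, and their rows overlap. HSPE1 also shares 40.4% of its 75-base sequences with other genes, among them the readthrough HSPE1-MOB4 (37 and 39 reads) and pseudogenes. With all 9 such rows added, its log2 fold change was -0.57.

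HSPB1, a small heat shock protein that holds unfolded proteins without ATP, lies at chr7:76302544-76304295 on the plus strand with 3 exons. It had 2821 reads in Vector against 2333 in the library labelled OE-UNC5B, 1.42-fold lower with a log2 fold change of -0.51 (interval -0.59 to -0.43). Of the 8 other small heat shock proteins, CRYAB and HSPB8 among them, 0 reached 10 reads over both libraries, and the highest single count was 6 reads. HSPB1 is thus the one small heat shock protein examined with a level that can be read here.

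**Figure D3:**
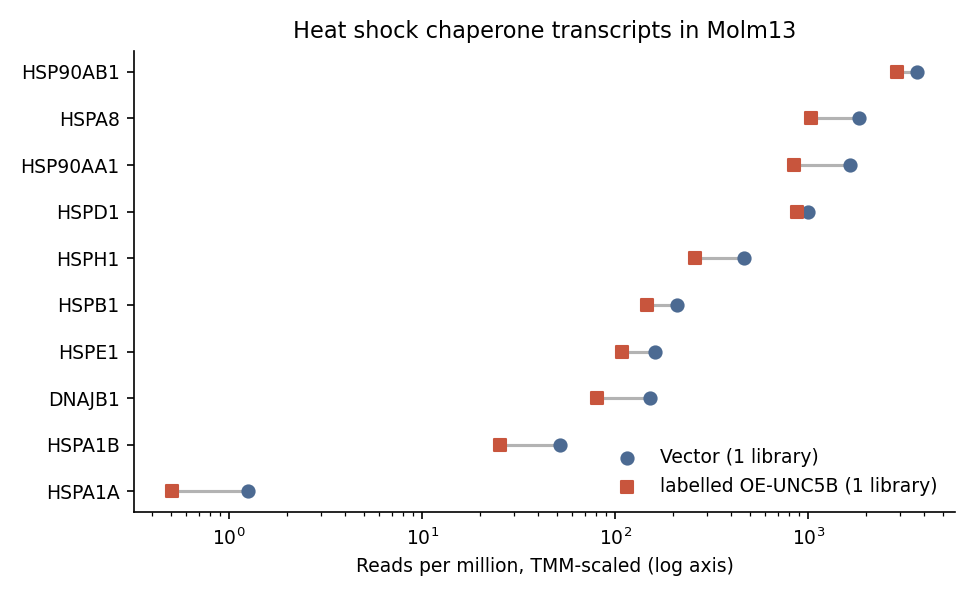
TMM-scaled CPM of each chaperone (log axis), with circles for Vector and squares for the library labelled OE-UNC5B, 1 library each. HSP90AB1 is highest in both (3683 and 2887), HSPA1A lowest (1.26 and 0.503), and each square lies to the left of its circle.

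Taken as 1 pool, the family held 124040 reads in Vector against 99476 in the library labelled OE-UNC5B, or 0.904% and 0.636% of all reads counted on genes. The pool was 1.47-fold lower, a log2 fold change of -0.55 (interval -0.57 to -0.54). HSP90AB1 alone held 40.1% of the pool in Vector and 46.1% in the other library, and without it the log2 fold change was -0.71. Comparing levels between genes needs a length, and the length behind the deposited FPKM (reads scaled to gene length and library size) was longer than the canonical transcript for all 10 members. For HSPA8 it was 14123 nt against 2264 nt, and for HSPE1 4098 nt against 557 nt. For 4 members (HSPA8, HSPE1, HSPB1 and HSPA1A) it was longer than the whole gene, which spans 5742 nt for HSPA8. The same held for 1370 of the 15384 genes with at least 10 reads (8.91%). An order of genes by the deposited FPKM thus rests on these lengths. In scaled CPM per kilobase of canonical transcript, HSP90AB1 stood at 1441 in Vector against 1130 in the library labelled OE-UNC5B, followed by HSPA8 at 808 and 456 and HSP90AA1 at 511 and 260. HSPD1 stood at 443 and 391. Thus HSP90AA1 was above HSPD1 in Vector and below it in the library labelled OE-UNC5B. By the deposited FPKM, HSP90AA1 (181 and 95.3) stood above HSPA8 (127 and 74.3), the reverse of the order per canonical length.

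The other genes of the pathway were read from lists by role, each list described by its counts beside the same 12.5% of all genes that were lower and 12.9% that were higher by 1.5-fold. Over 8 lists of further chaperones and co-chaperones, with each gene counted once, 96 of 108 genes had at least 10 reads. Of these 96, 28 (29.2%) were lower and 3 (3.12%) were higher by 1.5-fold, with a median log2 fold change of -0.28.

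Of the 7 other HSP70 and HSP110 genes with at least 10 reads, 3 were lower and 1 was higher. HSPA4L, an HSP110 protein, had 661 reads in Vector against 493 in the library labelled OE-UNC5B (log2 fold change -0.66), and HSPA13, an HSP70-like protein of the microsomes, had 592 and 1247 (0.84). The other 2 lower genes had few reads. HSPA6, strictly inducible by heat, had 7 and 5 reads, near the floor (interval -2.72 to 1.15). HSPA1L had 23 and 14 (interval -2.02 to 0.07), and both intervals hold 0. HSPA4, with 6207 and 5731 reads, was at -0.35. Of the 25 J-domain genes, 6 were lower and 1 was higher, and the median was -0.01. DNAJA1, a J-domain partner of cytosolic HSP70 with more reads than DNAJB1, had 5391 and 2770 reads (log2 fold change -1.20, interval -1.26 to -1.13). DNAJC14 was at -1.30 and DNAJA4 at -1.12. Of the 8 nucleotide exchange factors, BAG1 had 1464 and 882 reads (-0.97) and GRPEL2, an exchange factor of mitochondrial HSP70, had 123 and 842 reads (2.53, interval 2.26 to 2.82). GRPEL1, the other exchange factor of mitochondrial HSP70, had 701 and 773 reads (-0.10). Other cytosolic J-domain proteins lay on both sides of 0, with DNAJB5 (40 and 23 reads) at -1.02, DNAJB6 (954 and 773 reads) at -0.54, DNAJB4 (202 and 227) at -0.07, DNAJA2 (1398 and 1640) at -0.01, DNAJC7 (2091 and 3019) at 0.29 and DNAJB2 (52 and 93) at 0.60.

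Of the 17 HSP90 co-chaperones, 4 were lower and 0 were higher by 1.5-fold, and 16 had a log2 fold change below 0, where 50.6% of all genes did. The count of lower genes was 2 with library totals and 2 with FPKM and 0.1 added, where 11.1% and 8.84% of all genes were lower. AHSA1, which speeds the HSP90 ATPase, had 2445 reads in Vector against 1506 in the library labelled OE-UNC5B (-0.94, interval -1.03 to -0.84). STIP1, which links HSP70 to HSP90, had 4764 and 3641 reads (-0.62), and FKBP4 had 3657 and 2733 (-0.66). TOMM34 was at -0.63. NUDC, with the highest FPKM of the list, had 3363 and 2738 reads (-0.53). Of the 14 subunits of TRiC and prefoldin, which fold actin and tubulin, 4 were lower and 0 were higher. TCP1 had 7578 and 5374 reads (-0.73), and the prefoldin subunits VBP1, PFDN4 and PFDN6 stood at -1.02, -0.84 and -0.78. CCT8, a subunit of the same ring as TCP1, had 8558 and 11027 reads (0.13).

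In mitochondria, 1 of 11 chaperones and proteases was lower and 1 was higher, with a median of -0.06. HSPA9, the mitochondrial HSP70, had 12080 reads in Vector against 13686 in the library labelled OE-UNC5B (log2 fold change -0.06), and DNAJA3 was at -0.64. Reads of HSPD1 per read of HSPA9 were 1.11 in Vector and 1.02 in the other library, a log2 difference of -0.12 (interval -0.17 to -0.07). In the endoplasmic reticulum, 10 of 18 chaperones were lower and 0 were higher, with a median of -0.64. HSPA5, the HSP70 of that compartment, had 9319 and 5848 reads (-0.91, interval -0.96 to -0.86), close to HSPA8. CALR had 20310 and 9084 reads (-1.40), MANF 887 and 368 (-1.50), CRELD2 403 and 167 (-1.50), SDF2L1 480 and 251 (-1.17) and PDIA4 2132 and 1404 (-0.84). Within each library, HSPA8 had 2.65 reads per read of HSPA5 in Vector and 2.81 in the other, a log2 difference of 0.08 (interval 0.03 to 0.14). The difference of HSPA5 was thus slightly larger than that of HSPA8, and that of the mitochondrial HSPA9 was smaller than both.

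**Figure D4:**
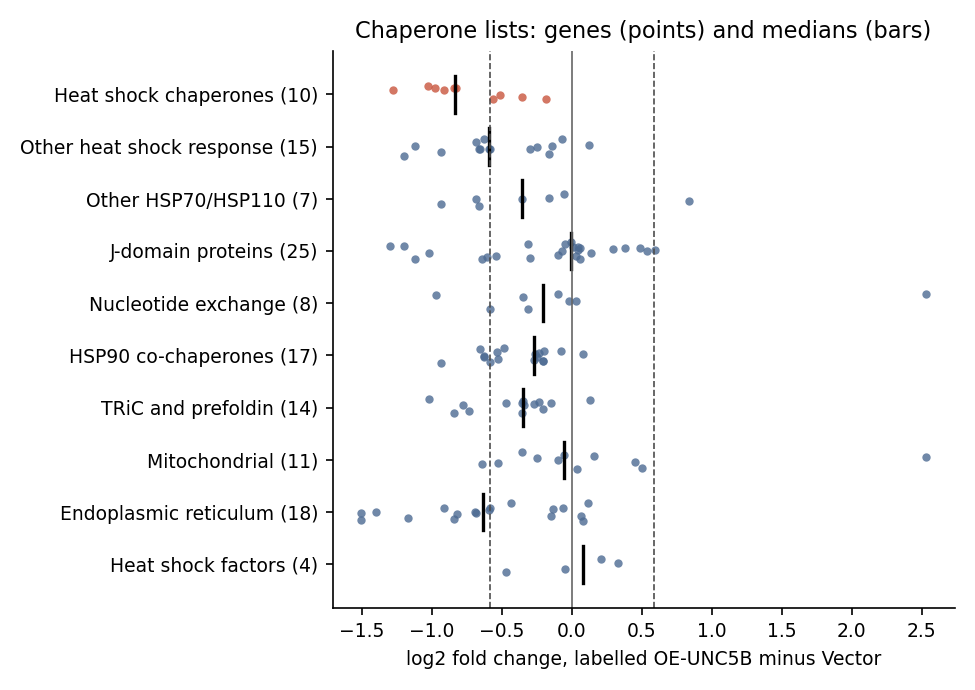
Log2 fold change of the genes with at least 10 reads in each chaperone list (library labelled OE-UNC5B minus Vector), with the number of genes in brackets, black bars for list medians and dashed lines at 1.5-fold either way. The heat shock chaperones (red) have a median of -0.83, the endoplasmic reticulum list -0.64, the mitochondrial list -0.06, and GRPEL2 is the point at 2.53.

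HSF1, a factor known to drive many genes of the family, did not have a lower mRNA level. It had 1569 reads in Vector against 2133 in the library labelled OE-UNC5B, a log2 fold change of 0.21 (interval 0.11 to 0.30), and HSF2 was at -0.05. Of the 4 genes with at least 10 reads in the list of heat shock factors and their binding protein (HSF1, HSF2, HSF4 and HSBP1), 0 were lower or higher by 1.5-fold. Of 15 other genes known to be induced with the heat shock response, 8 were lower and 0 were higher, with a median of -0.59. The count of lower genes was 5 with FPKM and 0.1 added. All of the lower genes but UBB (DNAJA1, DNAJA4, AHSA1, HSPA6, HSPA4L, FKBP4 and STIP1) are also in the lists above, as are BAG3, CHORDC1 and DNAJB4, so it is not a separate count. UBB, a polyubiquitin gene, had 2655 and 2077 reads (-0.59). BAG3 (197 and 155 reads) and CHORDC1 (1011 and 1003 reads) were at -0.58 and -0.25.

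**Figure D5:**
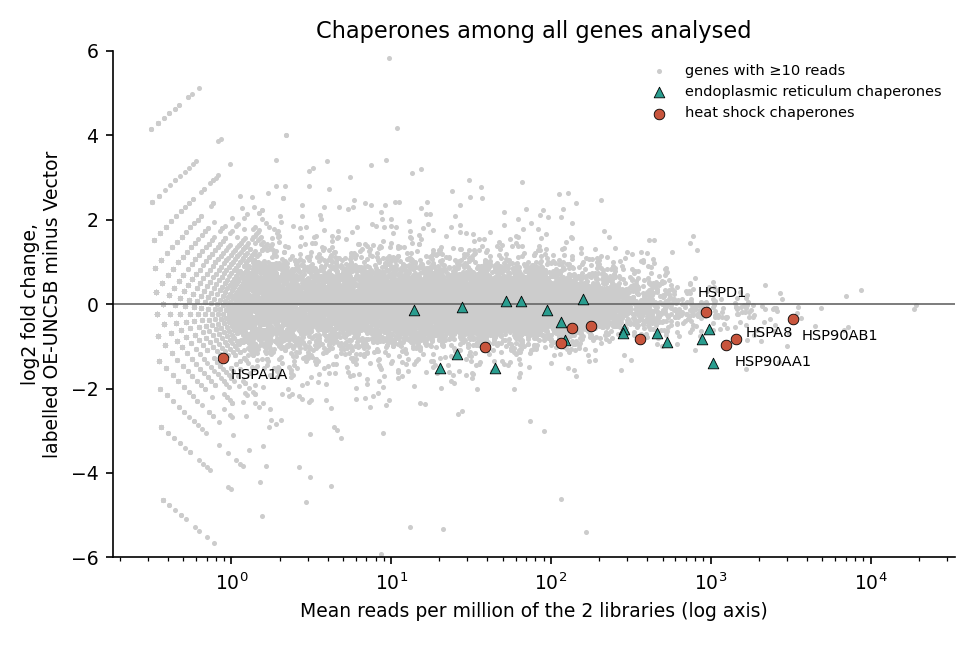
Log2 fold change (library labelled OE-UNC5B minus Vector) against the mean CPM of both libraries on a log axis, for the genes with at least 10 reads (grey), with the heat shock chaperones as circles and the endoplasmic reticulum chaperones as triangles. Of all genes, 9 lie outside the plotted range of -6 to 6. The 10 circles lie below 0 and most of them among the abundant genes.

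Other stress programmes also differed between the 2 libraries. Of 18 immediate early genes, which respond within minutes to handling and growth signals, 8 were lower and 0 were higher by 1.5-fold. IER2 had 1750 reads in Vector against 302 in the library labelled OE-UNC5B (-2.77), EGR3 168 and 36 (-2.44), FOS 2692 and 1781 (-0.83), DUSP1 107 and 71 (-0.82), and IER3 414 and 323 (-0.59), while JUND was at 0.10. Of 12 targets and regulators of the integrated stress response, 11 were higher and 0 were lower, with a median of 1.43. STC2 (213 and 1852 reads) was at 2.88, DDIT4 at 2.63, ASNS at 1.91 and PSAT1 at 1.23. Their part in the lower chaperone levels was not tested, and with 1 library per group an effect of the construct and a difference between the cultures cannot be told apart.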

How the data were processed

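For 1 Vector library and 1 library labelled OE-UNC5B, the authors deposited a table of unnormalized read counts and of FPKM. The VAHTS Universal V6 kit was used, and libraries were sequenced on an Illumina HiSeq platform. The submitters' processing notes name bcl2fastq 2.19, HISAT2 2.0.4, StringTie 1.3.0 and GRCh38. The counter, the gene annotation's release and the handling of strand are not given in the sources used here.

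Library sizes were adjusted by TMM (edgeR 4.0.16 under R 4.3.3, factors 0.984 and 1.02). Log2 fold changes had 0.5 reads added and cover the 15384 genes that reached 10 reads in total. Intervals are 95% and come from Clopper-Pearson limits on the reads, or exact conditional intervals for ratios between genes (scipy 1.17.1), and cover counting error only. With 1 library per group no residual degrees of freedom remain, so no test was run and no p-value is given. A gene was called lower or higher past 1.5-fold or 2-fold. The scaling and the intervals for single genes were tested on simulated counts that vary by counting error only. That simulation does not cover variation between cultures. Canonical transcripts and 75-base matches came from GENCODE 44, in which 49659 of 50868 identifiers were found, and upstream sequences from RefSeq. All 10 members matched by symbol.

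The settings varied were size factors of DESeq2 1.42.0, library totals, FPKM values, 2 reads added, other filters and summed copies. Named genes are the members, UNC5B, genes sharing sequence with a member, and per list the gene of highest FPKM and up to 6 genes past 1.5-fold with at least 100 reads. Any other gene was named after its values were seen. The members and lists were chosen with earlier results of these data known.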

Additional observations from a re-analysis of the deposited data

How the results depend on the processing

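No paired analysis was possible because each group is a single library, which also leaves no replicate to drop. All members that were kept were lower in OE-UNC5B as labelled with each of 10 alternatives: library totals, DESeq2 size factors, 2 reads added, FPKM with 0.1 or 1 added, a minimum of 50 reads, no minimum, HSPA1A and HSPA1B summed, each member summed with its copies, and, chosen after seeing the data, the median ratio of genes with at least 1000 reads. Of the single-member values, 84 stayed within the counting interval of the main value, 14 left it and 0 changed sign. Many of the 84 could not differ. The 2 other minimums and the sum of HSPA1A and HSPA1B leave the value of every other kept member as it was. Summing with copies does so for members without reads on a copy. All 14 that left the interval came from library totals or FPKM. HSPA1A, whose interval is wide, was at -0.82 with FPKM and 0.1 added and at -0.20 with FPKM and 1 added, against -1.28.

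The count of members lower by 2-fold, 2 in the main setting, was 1 with library totals, 1 with at least 50 reads, 1 with HSPA1A and HSPA1B summed, and 0 with FPKM and 0.1 or 1 added. HSPA1A has too few reads for the higher minimum, and HSPA1B lies next to the mark. The log2 fold change of the pool was -0.51 with library totals, -0.42 with summed FPKM and -0.71 without HSP90AB1. HSP90 co-chaperones lower by 1.5-fold numbered 2 with library totals and 2 with FPKM and 0.1 added, in place of 4, where 11.1% and 8.84% of all genes were lower. With FPKM and 0.1 added, other heat shock response genes lower by 1.5-fold numbered 5 in place of 8, and J-domain genes higher by 1.5-fold 0 in place of 1. For these list counts the cause was not tested. Depth limits HSPA1A, HSPA6 and the other small heat shock proteins.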

Other observations

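The 3-unit heat shock element was also used to describe genes outside the family, a reading chosen after the values were seen. Leaving out the members, 41 genes with this element in a RefSeq window had at least 10 reads. Of these, 6 were lower and 6 were higher by 1.5-fold in the library labelled OE-UNC5B (14.6% each), against 12.5% and 12.9% of all genes, and their median log2 fold change was -0.16. Among the lower ones, MS4A6A had 864 reads in Vector against 538 in the library labelled OE-UNC5B (-0.92), TEX2 had 945 and 623 (-0.84), and TMX2 had 1784 and 1318 (-0.67). Among the higher ones, ZBED6 had 72 and 231 reads (1.44), SPRY3 had 35 and 98 (1.24), LOXHD1 had 48 and 119 (1.06), and MGA had 794 and 1417 (0.60). DNAJB6, a J-domain protein that suppresses aggregation and one of the 41, had 954 and 773 reads (-0.54). Among the 19 of them with at least 1000 reads, 4 were lower (21.1%) and 1 was higher (5.26%) by 1.5-fold, against 6.57% and 7.62% of all genes at that depth.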
